A study of Mus musculus with 4 samples.

Results

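Interferon-stimulated genes are the antiviral and immune genes that cells switch on when an interferon reaches them. The 35 described here were chosen by name, with earlier results of these data known. Their probes are the non-control probes of the array that carry a name from that list. All 35 were on the array, read by 46 of its 39426 probes, out of 30197 genes or targets in all. The 4 arrays hold total RNA of C57BL/6 newborn mouse skin keratinocytes, the epithelial cells of the epidermis, of genotype Pla2g2f+/+ or Pla2g2f-/-. Pla2g2f encodes a secreted phospholipase A2 of the epidermis, and the labels do not say which part of the gene was deleted or whether other alleles were present. Cells were freed with 0.05% collagenase A, grown for 3 days and kept for 48 h with 1 mM CaCl2, which drives keratinocytes to differentiate, or without it as the control. RNA of 6 mice was pooled for each genotype, and each of the 4 groups was measured on 1 array. No difference can therefore be checked against replicates and no p-value is given, the number of arrays limits the precision, and an effect of genotype and one of the cell preparation cannot be told apart.

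Type I interferons bind the receptor chains Ifnar1 and Ifnar2, and the kinases Jak1 and Tyk2 then activate STAT proteins, Stat2 among them. With Irf9 these form a complex that binds the interferon-stimulated response element (ISRE), a short DNA motif before many antiviral genes, while interferon gamma acts through STAT proteins on a second motif, the gamma-activated site (GAS). Keratinocytes carry both receptor systems and keep many of these genes at a low standing level, and macrophages express most of them as well.

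Levels are given as log2 of the spot signal over the 75th percentile of all spots on its own array, and a gene was read from its brightest probe. Differences between 2 arrays are log2 differences of these levels, and a gene counted as higher or lower when the difference reached 2-fold. Signal well above background was found on all 4 arrays for 32 of the 35 genes, for Mx1 and Oas3 on some, and for Oas1g on none. The median level of those 32 was -1.38 in untreated +/+ cells and -1.36 with calcium, against -0.65 and -0.89 in -/- cells. The error model of the scanner gave a median error of 0.20 log2 for a difference of a member, which covers the array measurement and no spread between cultures. Tap1, printed as 10 spots on each array, varied by an SD of 0.05 to 0.07 log2 among its spots.

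Across the arrays 67.0% to 68.6% of probes were well above background, and 19156 genes were on all 4. Pla2g2f itself was well above background on every array, at -3.35 (untreated) and -3.04 (calcium) in +/+ cells. In -/- cells it was at -3.78 and -3.53, lower by 1.35-fold and 1.41-fold. Since the deleted part is not given, this probe checks nothing about the labels. The markers of basal keratinocytes were well above background on all 4 arrays, 10 of 10. The median over all compared genes of the -/- minus +/+ difference was itself below 0, at -0.18 log2 without and -0.16 with calcium.

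Interferon-stimulated genes were higher in -/- than in +/+ cells on both sides of the calcium switch, mostly by less than 2-fold. Without calcium, 6 of 34 compared genes were at least 2-fold higher and 0 lower, where 4.65% of 21262 genes were higher and 4.32% lower. They were Ifi27l2a, Oasl1, Oas2, Rsad2, Psmb9 and Oasl2. With calcium, 7 of 34 were higher and 0 lower, against 6.55% and 3.04% of 21479 genes. Here Dhx58 and Mx1 joined the list while Oasl2 stood just under the threshold. Mx1 was not well above background in +/+ cells, so its value is a lower bound. Among members well above background on both arrays, 6 of 33 without and 6 of 32 with calcium were higher and 0 lower. Of all such genes 4.24% and 5.84% were higher. In both comparisons 5 genes were at least 2-fold higher (Ifi27l2a, Oas2, Oasl1, Rsad2 and Psmb9), while 4.12% of 20619 genes were. With normexp background correction 3 and 4 members reached 2-fold, where 3.07% and 4.40% of all genes did.

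The smaller differences went mostly the same way. The median over the 34 genes was 0.53 log2 (1.44-fold) without calcium and 0.51 (1.42-fold) with calcium, where all genes had -0.18 and -0.16. Values above 0 were found for 30 and 26 of the 34 genes, or 88.2% and 76.5%, against 31.1% and 36.7% of all genes. Among members well above background on both arrays, 29 of 33 and 24 of 32 were above 0. In both comparisons 25 genes were above 0 and 3 below it (Ifi35, Gbp2 and Tap1). A further 5 were above 0 only without calcium (Ddx58, Isg15, Usp18, Oas1b and Xaf1), and Oas3 only with it. The Oas3 value with calcium and both Mx1 values are bounds that could not fall below 0. With calcium the differences of Ddx58, Usp18, Oas1b and Xaf1 (-0.14 to -0.08) lay within their scanner error of 0.20. Those of Tap1 both times and of Gbp2 without calcium lay within their scanner error of 0.21. Scaled to basal keratinocyte markers instead of the 75th percentile, 32 and 34 of the 34 genes were above 0. The median of all genes then moved up as well, to 0.07 and 0.43. The median of the 34 genes stood 0.71 and 0.66 above that of all genes, against 0.70 and 0.66 with the 75th percentile. The comparisons without and with calcium use different arrays, but the labels name 1 pool of 6 mice per genotype, so they may share their cells and are not taken as independent.

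**Figure D1:**
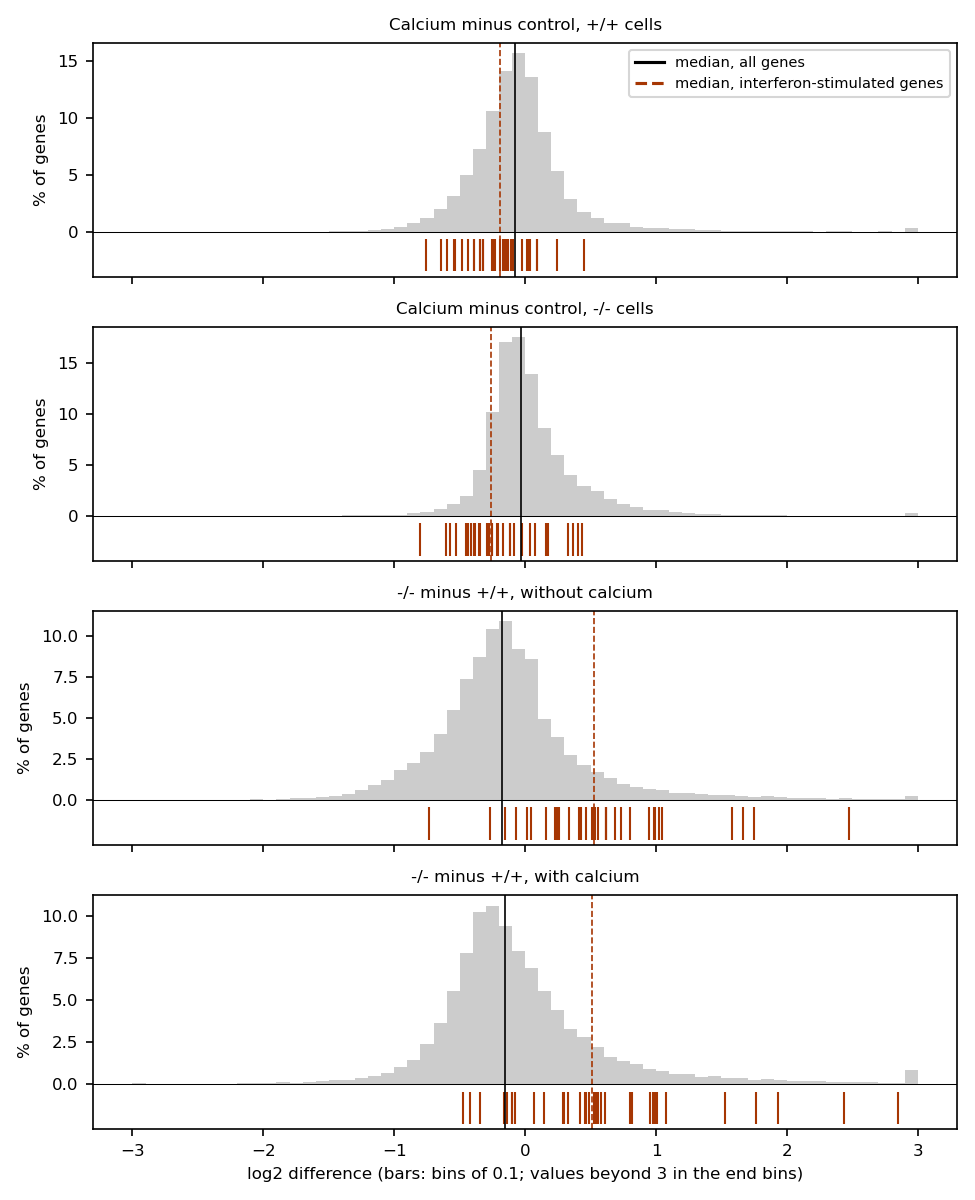
Log2 differences of the interferon-stimulated genes (red ticks) under the distribution over all genes compared (grey bars, % of genes in bins of 0.1 log2) for the calcium responses of +/+ and -/- cells and for the genotype differences without and with calcium. The solid line is the median of all genes and the dashed line that of the interferon-stimulated genes: in the calcium responses both lie at or below 0, and in the genotype comparisons the dashed line stands at 0.53 and 0.51 against -0.18 and -0.16.

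Calcium responses of all compared members were under 2-fold. In +/+ cells 0 of 33 compared genes were higher and 0 lower at 2-fold, where 2.47% and 1.01% of 21046 genes were, and in -/- cells 0 of 34 in either direction, against 2.99% and 0.6% of 21343 genes. Most values were slightly negative, with 26 of 33 and 26 of 34 below 0 and medians of -0.20 and -0.26, beside -0.07 and -0.03 for all genes. Scaled to basal keratinocyte markers the medians turned to 0.15 and 0.42, where all genes had 0.27 and 0.65. The responses ran from -0.76 (Ifi27l2a) to 0.45 (Gbp2) in +/+ cells and from -0.80 (Usp18) to 0.43 (Oas3) in -/- cells. In both genotypes 22 of 33 genes were below 0, against 41.0% of all genes, and 3 were above it. The response of -/- cells minus that of +/+ cells reached 2-fold for 0 of 32 genes in either direction, where 1.91% and 0.632% of 19156 genes did, and its median was -0.05 (all genes 0.02). Suprabasal keratinocyte markers over the same arrays had calcium medians of 2.74 and 2.37.

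Markers of other cell types differed between the genotypes along with these genes. Of all genes compared, 4.65% without and 6.55% with calcium were at least 2-fold higher in -/- cells, the shares for each count below. Of 15 macrophage and monocyte markers 13 were at least 2-fold higher in -/- cells without calcium and 14 with it, with medians of 1.89 and 3.13. Their summed signal, in units of the 75th percentile, was 11.9 in untreated and 7.28 in calcium-treated +/+ cells, against 46.7 and 62.3 in -/- cells. All but Cd163 and Aif1, whose differences are lower bounds, were well above background in +/+ cells too. Mast cell markers were at least 2-fold higher for 8 of 8 compared both times (medians 3.16 and 3.74, Ms4a2 not well above background on any array), with sums of 1.52 and 1.69 against 11.4 and 11.4. Adipocyte markers were higher for 7 of 7 both times (medians 2.81 and 3.00), and fibroblast markers had medians of 0.56 and 0.92. Langerhans and dendritic cell markers had medians of -0.04 and -0.47, with Cd207, Xcr1 and Clec9a not well above background on any array. Itgax, the 1 of 6 compared with calcium that reached 2-fold, was at least 3.02-fold higher in -/- cells and well above background only there. Plasmacytoid dendritic cell markers, Bst2 among them, had medians of -0.07 and -0.00. Of this list Siglech had levels of 4.51 to 4.81 on the arrays, and Ly6d was 6.37-fold and 7.29-fold higher with calcium in +/+ and -/- cells. Whether the list reads such cells here was not tested. Markers of T and NK cells had medians of -0.35 and -0.34, with 6 of 10 not well above background anywhere. Basal keratinocyte markers were lower, with medians of -0.25 and -0.46 and sums of 435 and 400 in +/+ cells and 358 and 284 in -/- cells. In RNA of a whole culture fewer cells of a type and less RNA per cell cannot be told apart, and the part of these cell types in the differences of the interferon-stimulated genes was not tested.

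**Figure D2:**
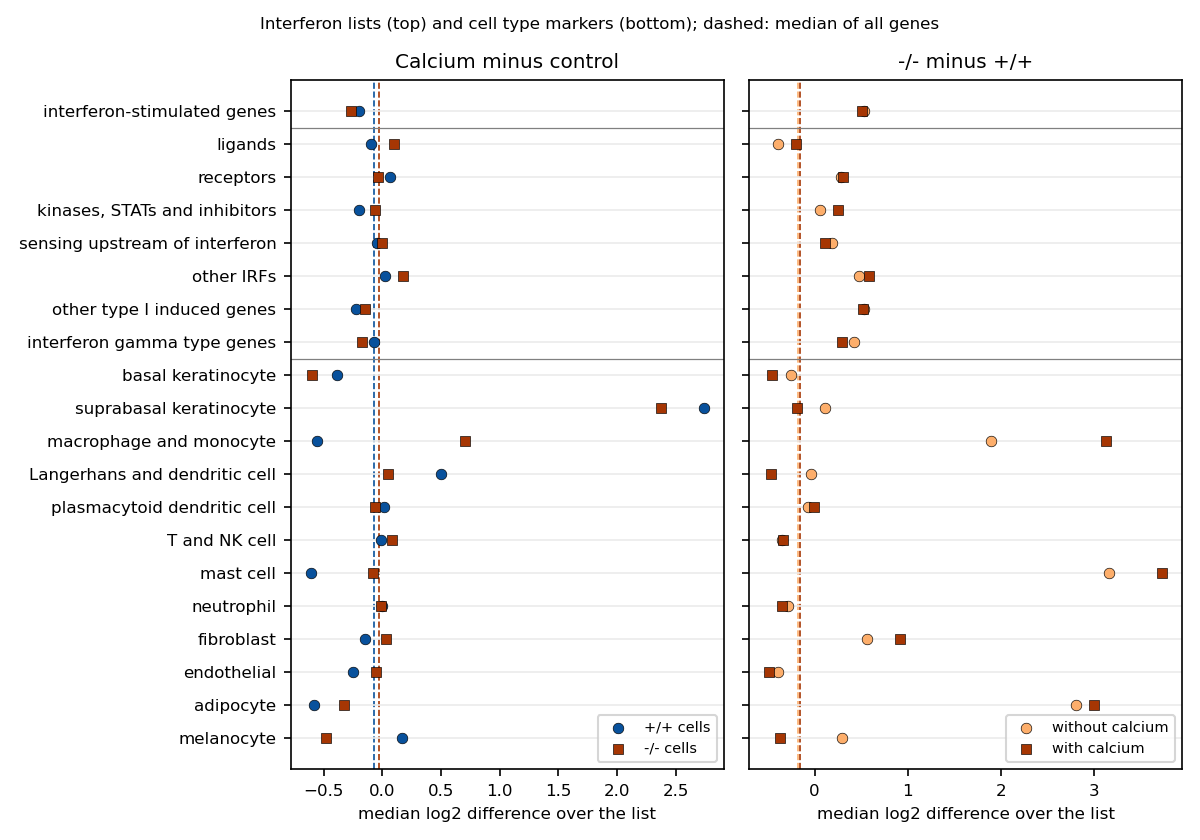
Median log2 difference over each list for the calcium responses (left, calcium minus control in +/+ and -/- cells) and the genotype differences (right, -/- minus +/+ without and with calcium); lists of interferon signalling stand above and cell type markers below, and dashed lines mark the median of all genes. The interferon-stimulated genes lie at 0.53 and 0.51 on the right, receptors at 0.29 and 0.30, and the macrophage, mast cell and adipocyte markers from 1.89 to 3.74.

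The promoters of these genes were searched for both motifs to show what the group shares in sequence. RefSeq (GRCm38.p6) promoter windows of 300 bases, from 250 before to 50 after the start of transcription, were at hand for 27 of the 35 genes, 31 windows in all. The ISRE was searched as GAAANNGAAA (TTTCNNTTTC on the other strand) and the GAS as TTCNNNGAA, which reads alike on both strands, and matches of the 2 may overlap. An ISRE match stood in 14 of 31 windows (45.2%), against 3.44% of 32851 windows of all genes, and a GAS match in 7 of 31 (22.6%), against 8.30%. The ISRE stretches of 5 genes are printed because they stand before genes whose genotype differences without calcium ran from 1.58 (Rsad2) to -0.15 (Gbp2). Each is 60 bases on the strand of the gene, 5′ to 3′, ending before the start site, with ISRE matches in capitals:
Rsad2 (chr12:26456539-26456598, minus strand): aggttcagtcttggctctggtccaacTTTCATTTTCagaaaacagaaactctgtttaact
Bst2 (chr8:71537566-71537625, minus strand): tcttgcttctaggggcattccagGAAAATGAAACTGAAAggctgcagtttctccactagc
Ifit1 (chr19:34640769-34640828, plus strand): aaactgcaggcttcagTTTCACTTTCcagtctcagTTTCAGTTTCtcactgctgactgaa
Isg15 (chr4:156200857-156200916, minus strand): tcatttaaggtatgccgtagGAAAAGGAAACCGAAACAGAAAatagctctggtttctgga
Gbp2 (chr3:142620578-142620637, plus strand): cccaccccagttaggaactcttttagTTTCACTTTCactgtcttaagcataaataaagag

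Isg15 has 3 overlapping matches between bases -78 and -57 from the start, Ifit1 has 2 that do not overlap, and Bst2 has 2 overlapping ones, the first of which also overlaps a GAS match. Genotype differences of genes with and without a match overlapped, and the split was not tested. The 13 compared genes with an ISRE match had medians of 0.43 and 0.42 without and with calcium (range -0.73 to 1.58 without), with 1 gene (Rsad2) at least 2-fold higher each time. The 13 without a match had 0.51 and 0.54 (range -0.27 to 1.75 without), with 3 and 2 genes at 2-fold. The 8 genes with no window in the table, among them Oas2, Ifi27l2a, Mx1 and Dhx58, had 0.71 and 1.00, with 2 and 4 at 2-fold. The Mx1 values among them are lower bounds. Of all genes compared, 4.65% without and 6.55% with calcium were at least 2-fold higher, and the groups are too small to set against these shares. A match is a description of these letters and not a site that was measured.

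**Figure D3:**
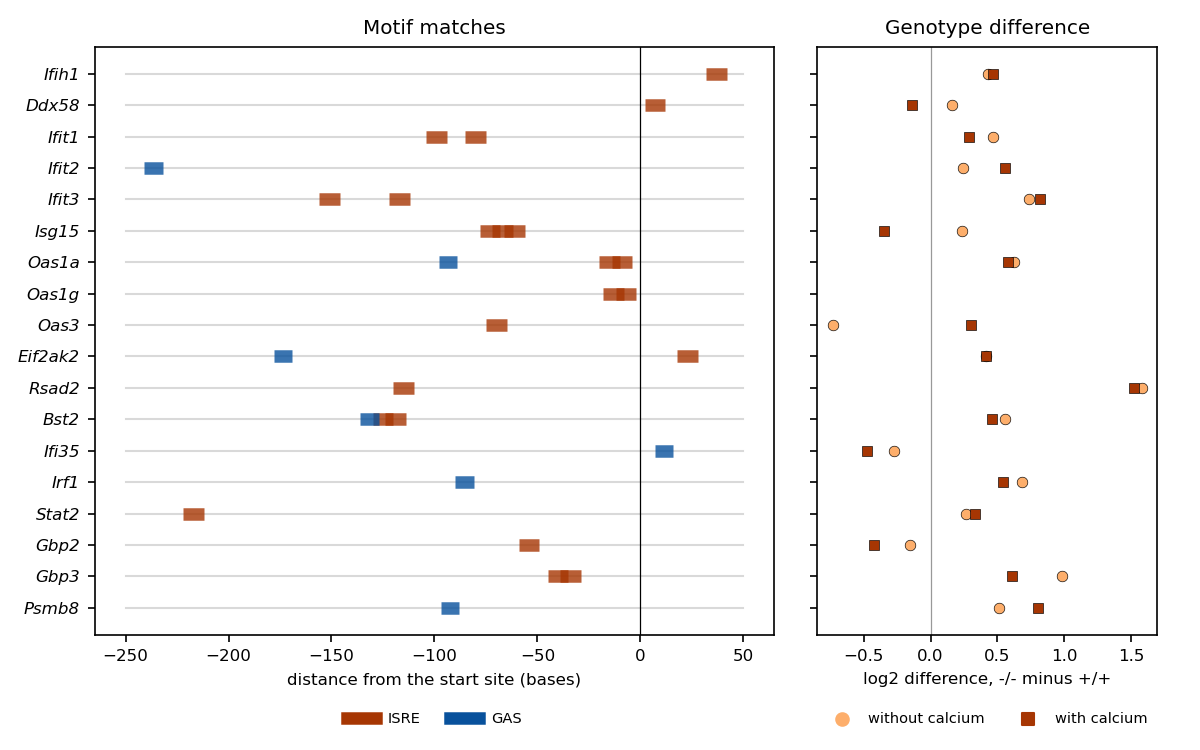
Left, positions of ISRE (red) and GAS (blue) matches in bases from the start of transcription, in the promoter windows of the interferon-stimulated genes that hold at least 1 match. Right, the genotype difference of the same genes in log2, -/- minus +/+, without (circles) and with calcium (squares): genes with ISRE matches run from -0.73 (Oas3) to 1.58 (Rsad2) without calcium.

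RNA sensors detect viral RNA in the cytoplasm and start interferon production. Dhx58 (LGP2), which tunes the other sensors, had levels of -3.18 (untreated) and -3.58 (calcium) in +/+ cells and of -2.38 and -2.50 in -/- cells, an order of conditions kept in what follows. Both -/- values lay above both +/+ values, and the difference was 1.74-fold without and 2.11-fold with calcium. Ifih1 (MDA5), a sensor of long double-stranded RNA, had -0.98 and -1.13 in +/+ cells and -0.56 and -0.67 in -/- cells, 1.35-fold and 1.38-fold higher. Ddx58 (RIG-I), which senses RNA with a triphosphate end, had 0.64, 0.73, 0.79 and 0.59 in the same order, and its groups overlapped. Its dimmer second probe gave 0.86 without and 0.19 with calcium where the brighter one gave 0.16 and -0.14.

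The Ifit proteins bind foreign RNA and block its translation. Ifit3 had levels of -2.04 and -2.52 in +/+ cells and -1.31 and -1.71 in -/- cells, 1.66-fold and 1.76-fold higher. Ifit1, which recognises RNA caps that lack a methyl group, had -3.70 and -3.86 against -3.23 and -3.57 (1.38-fold and 1.22-fold). Ifit2 had -3.89 and -4.05 against -3.65 and -3.49 (1.18-fold and 1.47-fold). All 3, on chromosome 19, were above 0 both times with medians of 0.47 and 0.56, and 0 of 3 reached 2-fold.

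Isg15 is a small modifier that is attached to other proteins like ubiquitin, Usp18 removes it and restrains the interferon receptor, and Trim25 is a ubiquitin ligase that acts on RIG-I. Isg15 had levels of 1.74 and 1.71 in +/+ cells and 1.97 and 1.37 in -/- cells. The -/- value was thus the highest of the 4 without calcium and the lowest with it, 1.17-fold above and 1.27-fold below its +/+ counterpart. A second Isg15 probe gave 0.13 and -0.33 where the brighter one gave 0.23 and -0.35. Usp18 had the same order, with -0.50 and -0.67 in +/+ cells and 0.04 and -0.76 in -/- cells, a calcium response of -0.80 in -/- cells (1.74-fold lower) against -0.17 in +/+ cells. Xaf1, a partner of the apoptosis inhibitor XIAP, did likewise, with -0.50 and -0.63 against -0.16 and -0.73. Its dimmer second probe gave 0.02 and 0.12 for the genotype difference where the brighter one gave 0.34 and -0.10. With calcium the genotype differences of Usp18 and Xaf1 were -0.10 each, within their scanner error of 0.20 and above the -0.16 of all genes. Their place as lowest of the 4 with calcium is thus not beyond that error.

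Trim25 had levels of 4.19, 4.43, 4.21 and 4.57 in the order +/+ without and with calcium, -/- without and with calcium. Its brightest probe ends in a repeat that takes up 30 of its 60 bases and is shown because the probe for the RefSeq transcript holds no such stretch and gave calcium responses of the other sign:
Trim25 probe, repeat end: GTGTGTGTGTGTGTGTGTGTGTGTGTGTGT

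The probe of the RefSeq transcript of Trim25 had 3.38 and 3.27 in +/+ cells and 3.45 and 3.21 in -/- cells, so its calcium responses were -0.11 and -0.23 where the other probe gave 0.24 and 0.37. Neither probe gave a genotype difference beyond 0.15 log2.

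The Mx GTPases trap viral nucleoproteins, and RefSeq lists both mouse genes of this strain as transcribed pseudogenes. Mx2 had levels of -3.35 and -3.55 in +/+ cells and -2.73 and -3.03 in -/- cells, 1.54-fold and 1.44-fold higher. Mx1 was not well above background in +/+ cells (-5.88 and -5.96) and was so in -/- cells (-5.36 and -4.96). The measured difference was 1.44-fold without and 2.01-fold with calcium, taken as a lower bound because the +/+ signal was not well above background. Its scanner error was 0.47 and 0.44 log2.

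Oligoadenylate synthetases answer double-stranded RNA by making short adenylate chains, which lead to the breakdown of RNA. The 7 family members on the array lie on chromosome 5, and they differed widely among themselves. Oas2 had levels of -3.99 and -4.43 in +/+ cells and -2.32 and -1.99 in -/- cells, 3.17-fold and 5.41-fold higher. Calcium went with a lower value in +/+ cells (-0.44) and a higher one in -/- cells (0.33), a gap of 0.77 log2 between the responses. Oasl1, a relative without synthetase activity that holds back translation of Irf7, had -3.86 and -4.21 against -2.11 and -2.28. It was 3.37-fold and 3.81-fold higher, with responses of -0.35 and -0.17 to calcium. Oasl2, a related gene close by, had -1.77 and -2.00 against -0.75 and -1.02, 2.03-fold and 1.97-fold higher.

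Oas1a had levels of 0.42 and 0.19 in +/+ cells and 1.05 and 0.77 in -/- cells, 1.54-fold and 1.49-fold higher. Its second probe gave 0.62 and 0.59 log2 where the brighter one gave 0.62 and 0.58, and the Oas1a and Oas1g probes each list transcripts of the other gene, so near-identical copies may share signal. Oas1b, listed by RefSeq as a transcribed pseudogene, had 3.09, 3.00, 3.14 and 2.92, and 2 of its 3 probes gave genotype differences within 0.1 log2. Oas3 lay near background, at -5.40 and -6.00 in +/+ cells and -6.13 and -5.70 in -/- cells. It was 1.66-fold lower in -/- cells without calcium and at least 1.23-fold higher with it, since the +/+ array with calcium was not well above background. The scanner error of these differences was 0.40 and 0.41 log2. Oas1g was not well above background on any array (-8.17, -8.35, -8.66 and -8.50). Over the 6 compared the medians were 0.82 and 0.78, with 3 and 2 genes at 2-fold, where 4.65% and 6.55% of all genes were higher.

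Among the other effectors Ifi27l2a, a small membrane protein of the ISG12 family, had the widest genotype difference. Its levels were -0.12 and -0.87 in +/+ cells and 2.36 and 1.97 in -/- cells, so that it was 5.56-fold higher without and 7.19-fold higher with calcium. That is above 99.4% of the genes compared without calcium and 99.1% with it. Its calcium response of -0.76 in +/+ cells (1.69-fold lower) was the lowest among the group, and that in -/- cells was -0.39. Rsad2 (viperin), an enzyme that makes a chain-terminating nucleotide, had -5.92 and -5.89 against -4.35 and -4.37, 2.99-fold and 2.88-fold higher. The +/+ values lay close to background, and the scanner error of these differences was 0.34 and 0.32 log2. The calcium responses of Rsad2 were 0.03 in +/+ and -0.02 in -/- cells.

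Rtp4, a chaperone of membrane receptors that also binds viral RNA, had levels of 0.14 and -0.25 in +/+ cells and 1.13 and 0.74 in -/- cells, 1.99-fold higher both times and so just under the threshold. Ifi44, an interferon-induced protein of the cytoplasm, had -2.59 and -3.13 against -1.65 and -2.17, 1.92-fold and 1.94-fold higher. In both of these genes the calcium responses of the genotypes were alike, at -0.39 and -0.39 for Rtp4 and -0.54 and -0.53 for Ifi44. Bst2 (tetherin), which holds budding virus at the cell surface, had 1.95 and 1.96 against 2.51 and 2.42, 1.47-fold and 1.38-fold higher. Eif2ak2 (PKR), a kinase that stops translation on meeting double-stranded RNA, had -1.85 and -1.82 against -1.44 and -1.40, 1.33-fold higher both times. Ifi35, a binding partner of Nmi, went the other way, with 1.99 and 1.84 in +/+ cells and 1.72 and 1.37 in -/- cells, 1.21-fold and 1.39-fold lower.

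**Figure D4:**
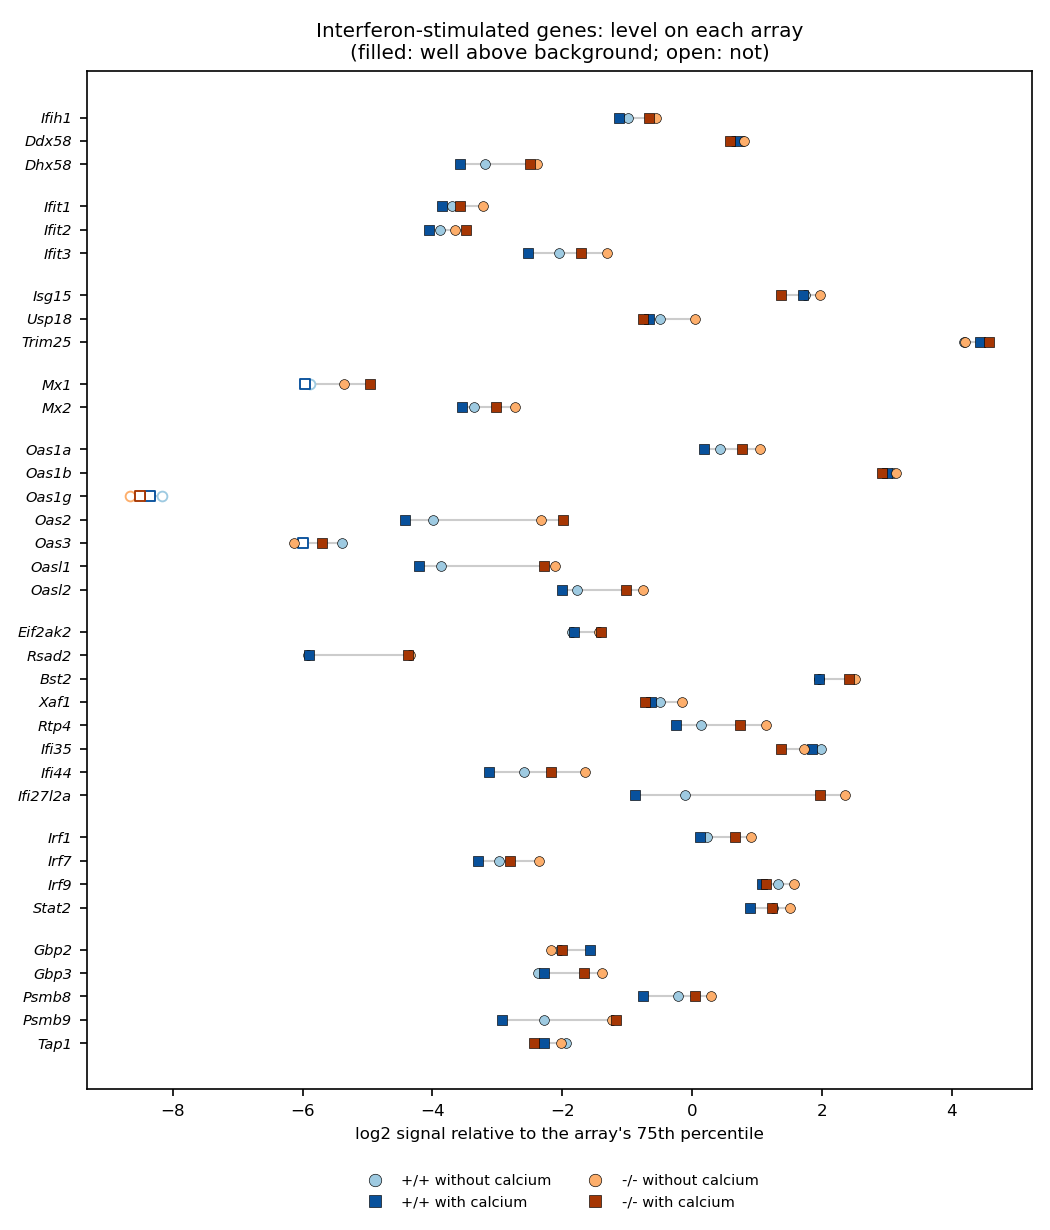
Level of each of the 35 genes on each of the 4 arrays, as log2 of signal over the 75th percentile, grouped by role; blue is +/+, orange and red -/-, circles without and squares with calcium, and open symbols are not well above background. For Oas2, Oasl1, Rsad2 and Ifi27l2a both -/- symbols lie at least 1.5 log2 to the right of both +/+ symbols, while Ddx58, Oas1b and Trim25 show 4 symbols close together.

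The transcription factors that carry the signal differed less. Irf1, induced mainly by interferon gamma, had levels of 0.22 and 0.12 in +/+ cells and 0.91 and 0.65 in -/- cells, 1.61-fold and 1.45-fold higher, and its second probe, for another transcript, was not well above background on any array. Irf7, which amplifies type I interferon production, had -2.97 and -3.30 against -2.36 and -2.81, 1.54-fold and 1.41-fold higher. Stat2 and Irf9, partners in the ISRE-binding complex, had smaller differences. Stat2 had 1.25 and 0.90 against 1.51 and 1.23 (1.20-fold and 1.26-fold), and Irf9 had 1.33 and 1.08 against 1.58 and 1.14 (differences of 0.25 and 0.07). All 4 were above 0 both times, with medians of 0.44 and 0.41, and 0 of 4 reached 2-fold. With calcium all 4 were slightly lower in both genotypes (-0.11 to -0.35 in +/+ and -0.25 to -0.45 in -/- cells).

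The last group holds genes of antigen processing and guanylate-binding proteins, which coat vacuoles of microbes and respond strongly to interferon gamma. Psmb9 and Psmb8 are catalytic subunits of the immunoproteasome, and Tap1 is a subunit of the peptide transporter that loads class I molecules. Psmb9 had levels of -2.29 and -2.93 in +/+ cells and -1.24 and -1.17 in -/- cells, 2.07-fold and 3.40-fold higher. Its second probe, for another transcript, was well above background on 2 arrays only and gave -1.16 and 0.23 for these differences. Psmb8 had -0.22 and -0.76 against 0.29 and 0.04, 1.43-fold and 1.74-fold higher. Tap1, which lies between these genes on chromosome 17, had -1.95 and -2.28 against -2.02 and -2.44, a difference of -0.07 and -0.16. Neighbours thus had unlike values. Psmb9 and Tap1 start 225 bases apart and are read away from each other, and the whole interval between their starts is shown because both promoters lie in it. Given on the strand of Tap1, it holds 0 exact matches of either motif:
Psmb9-Tap1 interval (chr17:34187331-34187555, plus strand): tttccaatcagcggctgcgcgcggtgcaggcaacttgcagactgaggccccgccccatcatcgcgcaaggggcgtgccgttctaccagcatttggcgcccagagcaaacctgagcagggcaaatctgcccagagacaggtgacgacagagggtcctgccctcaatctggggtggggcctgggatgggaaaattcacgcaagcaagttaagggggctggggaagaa

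Gbp3 had levels of -2.37 and -2.28 in +/+ cells and -1.39 and -1.67 in -/- cells, 1.98-fold and 1.52-fold higher. Gbp2 had -2.03 and -1.58 against -2.18 and -2.00, 1.11-fold and 1.34-fold lower, and its response to calcium in +/+ cells (0.45) was the highest of the group. Gbp2 and Gbp3, which lie on chromosome 3 and both hold an ISRE match, therefore differed in direction between the genotypes with calcium. Without calcium the Gbp2 difference (-0.15) lay within its scanner error of 0.21 and near the -0.18 of all genes.

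**Figure D5:**
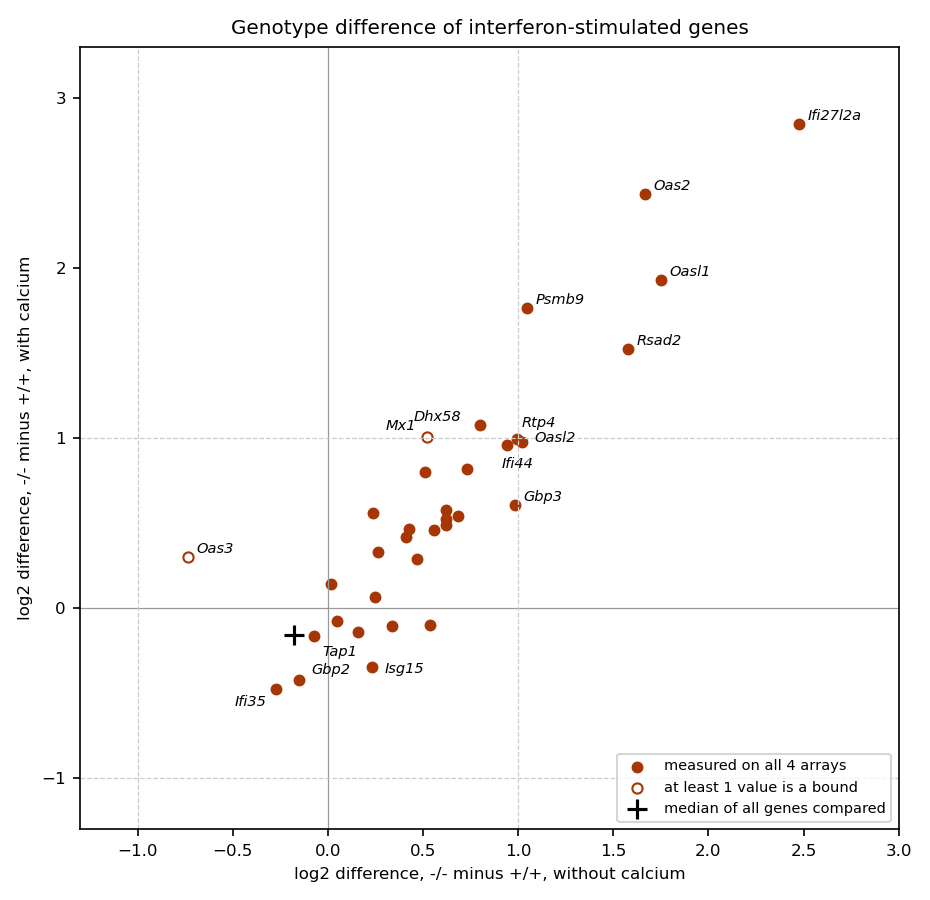
Genotype difference of 34 interferon-stimulated genes in log2 (-/- minus +/+), without calcium on the horizontal and with calcium on the vertical axis; open points include a value that is a lower bound, dashed lines mark 2-fold and the cross marks the median of all genes. The 5 genes beyond 2-fold on both axes are Ifi27l2a, Oas2, Oasl1, Rsad2 and Psmb9.

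The rest of the pathway was read from lists with 122 further genes on the array. Without calcium 10 of 109 compared were at least 2-fold higher in -/- cells and 1 lower, where 4.65% and 4.32% of all genes were. With calcium 20 of 108 were higher and 0 lower, against 6.55% and 3.04% of all genes. The medians were 0.32 both times, where all genes had -0.18 and -0.16. The ligands did not share this. Of 15 interferon genes on the array Ifnb1, Ifna11, Ifnk and Ifne were not well above background anywhere. Those compared had medians of -0.40 and -0.20, the second of which is close to the -0.16 of all genes. The alpha interferon genes are near-identical copies, so their probes may share signal. The ligand at 2-fold without calcium was Ifna12, at -3.68 and -4.29 in +/+ cells and -4.68 and -4.59 in -/- cells, 2.0-fold lower without calcium and -0.29 log2 with it. The differences of the others compared both times, Ifng aside, were those of Ifna1 (-0.34 and -0.58), Ifna2 (-0.40 and -0.50), Ifna5 (-0.48 and -0.20), Ifna7 (-0.34 and 0.34), Ifna13 (-0.67 and 0.11), Ifna14 (-0.32 and -0.20), Ifnab (-0.35 and -0.24) and the lambda interferon Ifnl3 (-0.57 and -0.13). Ifna4 was well above background only in -/- cells without calcium, where it was at least 1.12-fold higher. Interferon gamma (Ifng) lay near background, at -5.48 and -5.55 in +/+ cells, not well above it in -/- cells without calcium, and at -5.51 with calcium. Its genotype difference was at least 1.63-fold lower without calcium and 0.04 log2 with it.

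The 6 receptor chains were all within 2-fold. Ifnar1 had genotype differences of 0.37 and 0.74, Ifnar2 of 0.25 and 0.25, Ifngr1 of 0.59 and 0.46, Ifngr2 of 0.20 and 0.03 and Il10rb of 0.32 and 0.35. Ifnlr1, a chain of the lambda interferon receptor, had -0.19 and -0.64. Of the kinases, STATs and inhibitors, 0 of 9 were at least 2-fold higher or lower without calcium, where 4.65% and 4.32% of all genes were. With calcium 2 of 9 were higher and 0 lower, against 6.55% and 3.04% of all genes. Among these 2 was the inhibitor Socs1, 1.53-fold and 2.06-fold higher.

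Other genes known to be induced by type I interferon had medians of 0.53 and 0.52, with 6 and 12 of 37 at least 2-fold higher and 0 lower, where 4.65% and 6.55% of all genes were higher. Ifitm1, which blocks virus entry, was 4.22-fold and 5.91-fold higher, and the DNA-binding protein Ifi203 was higher by log2 differences of 1.68 and 1.98. Lgals3bp was 3.02-fold higher without calcium and 3.19-fold with it, and the checkpoint ligand Cd274 1.97-fold and 3.31-fold. Genes of the interferon gamma type had medians of 0.42 and 0.29, with 2 and 3 of 28 higher, close to those shares of all genes, among them Gbp11 (3.94-fold and 8.41-fold) and the class I transactivator Nlrc5 (2.31-fold and 3.24-fold). Irf8, a factor of myeloid cells, was 4.07-fold and 9.16-fold higher, and Tlr7, an endosomal RNA receptor of myeloid and B cells, 2.90-fold and 4.15-fold. The macrophage markers were higher on the same arrays, as given above, and their part in these values was not tested.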

How the data were processed

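RNA of 4 samples was measured on 1-colour Agilent arrays. The deposited signal is a spot intensity from Agilent Feature Extraction 11.5.1.1, per the submitters' processing notes, from which background was subtracted, per the file headers, without scaling one array to another. The authors' deposited value table is a ratio, each signal over the 75th percentile of its array (largest relative difference from that quotient 2.31e-07).

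Outlier spots (105 to 116 per array) were dropped, no spot was saturated, and log2 of the signal minus that of the 75th percentile (2638 to 3299 intensity units) of 43020 non-control spots was used. Probes of a gene were not averaged: its brightest probe was read. A gene was compared where well above background on at least 1 of 2 arrays. Against a dim array, the higher of its own value and the lowest signal of a probe well above background there gave the bound ("at least"). With 1 array a group, nothing was tested. The steps were tested on simulated arrays. All members were named. Pathway genes other than ligands and receptors were named when at least 2-fold different between genotypes, up to 8 per comparison and direction, and some of these are not reported here. Other pathway lists had 135 entries, 13 not found on the array. The members and lists were chosen with earlier results of these data known. Promoters and gene types are from RefSeq (GRCm38.p6). Alternatives were normexp background correction, 3 other scalings, 2 other probe rules, the deposited table, 2 filters and thresholds of 1.5-fold and 3-fold. Python 3.11.15, numpy 2.4.6, pandas 2.3.3, R 4.3.3 and limma 3.58.1 were used.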

Additional observations from a re-analysis of the deposited data

Results flagged for a closer look

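Isg15, the ubiquitin-like modifier, had genotype differences of opposite sign without and with calcium, 0.23 and -0.35 log2, which differ by -0.58. Oas2 had calcium responses of opposite sign in the genotypes, -0.44 in +/+ and 0.33 in -/- cells, which differ by 0.77. Each value comes from 2 arrays, and neither difference was tested.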

How the results depend on the processing

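The median genotype difference stayed above 0 in all 9 settings run. Over these 9 settings the median genotype difference ran from 0.46 to 0.78 without and 0.40 to 1.1 with calcium. Relative to all genes it ran from 0.64 to 0.83 and from 0.55 to 0.68. With normexp correction 3 genes were at least 2-fold higher in -/- cells without and 4 with calcium (3.07% and 4.40% of all genes). Scaling to basal keratinocyte markers moved the median of all genes to 0.27 and 0.65 for calcium (+/+, then -/-) and to 0.07 and 0.43 for genotype (untreated, then calcium). Medians of the interferon-stimulated genes became 0.15, 0.42, 0.78 and 1.1, so the calcium direction turned. Genes at 2-fold then numbered 4 for calcium in -/- cells (15.9% of all genes), 10 and 21 for genotype (6.64% untreated and 16.4% with calcium), all higher, and 2 for the response difference (5.38%, median 0.29). At 1.5-fold, 3 genes in +/+ and 2 in -/- cells were lower with calcium (5.90% and 2.30% of all genes). In -/- cells 15 were higher and 1 lower without calcium (8.81% and 16.1%) and 13 were higher with it (12.0%), and the response difference had 2 higher and 1 lower (7.06% and 2.49%). At 3-fold, 3 and 4 genes were higher in -/- cells (2.16% and 3.33%). With the mean of the probes of a gene the Psmb9 difference without calcium turned to -0.055, and 1 gene passed 2-fold in the response difference (2.23% of all genes). Ifi27l2a, Oas2 and Oasl1 stayed at least 2-fold higher in 7 of 7 settings both times, and Rsad2 in 6 of 7, with lowest values of 0.66 and 0.76. Psmb9 did so in 5 and 6 of 7, Oasl2 without calcium and Dhx58 with it in 6 of 7, and Mx1 with calcium in 5 of 7. All of these genes but Psmb9 have 1 probe, for which the 2 other probe rules return the main value. The deposited table holds the same quotient and could change none of these counts. No paired analysis was possible because each group has 1 array. Signal near background limits Mx1, Oas3, Rsad2 and Oas1g most.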
